A study of Homo sapiens with 4 samples.

Results

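The histone genes of PC9 and MTAC-P, 2 human lung cancer lines, were compared on 4 arrays with 2 arrays per line. Members were the genes of the replication-dependent histone clusters (symbols formerly starting with HIST1H, HIST2H, HIST3H or HIST4H), the replacement linker histone H1-10, and the variants H2AX, H2AZ1, H3-3A and H3-3B. They were found by symbol among probe sets that the platform annotation assigns to a single gene, and 68 genes with 119 probe sets were found, out of 18239 genes with a probe set of their own. Of the 68 genes, 57 encode core histones (15 H2A, 19 H2B including the pseudogene H2BC20P, 11 H3 and 12 H4), 6 encode replication-dependent linker histones, and 5 are replacement members. By the RefSeq gene table, 54 lie on chromosome 6, 9 on chromosome 1 and the other 5 on 5 further chromosomes. PC9 is a lung adenocarcinoma line driven by mutant EGFR, and MTAC-P is, per its labels, a resistant line raised under mild exposure to a tyrosine kinase inhibitor. Inhibitor, dose and parent line of MTAC-P are not named in the labels, nor is the presence of drug at harvest. Both lines were grown in DMEM with serum, no other treatment is named, and each group is a single line.

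Replication-dependent histone genes are transcribed in S phase, when new DNA must be packed into nucleosomes, and they lie in clusters of many near-identical copies. Their messenger RNAs carry no introns and end in a conserved stem-loop bound by SLBP instead of a poly(A) tail, although some of these genes can also yield polyadenylated transcripts. Replacement histones such as H3.3 and H2A.Z are made throughout the cell cycle from ordinary polyadenylated messages, and linker histones bind the DNA between nucleosomes. The labelling kit that the labels name amplifies from poly(A) tails, so transcripts that end in the stem-loop are poorly represented in such assays. Whether that kit made these values is not settled, since the probe-set names follow Affymetrix conventions, and its part in the histone levels was not tested. Near-identical coding sequences also mean that a probe set can bind several histone messages, which Affymetrix marks in the suffixes _s_at and _x_at.

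The sequences just upstream of 7 members are shown because these were the members higher in MTAC-P at a limma unadjusted p under 0.05. Each run is the 150 bases before the RefSeq gene start on the gene's own strand, in build GRCh38.p14. Capitals mark CCAAT or its reverse ATTGG, the TATA element TATAAA, the octamer ATTTGCAT known from H2B promoters, and AAACACA, the H1 box of linker histone promoters.
H1-2, chr6:26056471-26056620, minus strand: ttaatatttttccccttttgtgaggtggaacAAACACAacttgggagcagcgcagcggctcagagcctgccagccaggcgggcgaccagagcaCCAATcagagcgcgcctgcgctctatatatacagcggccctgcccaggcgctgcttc
H1-3, chr6:26234988-26235137, minus strand: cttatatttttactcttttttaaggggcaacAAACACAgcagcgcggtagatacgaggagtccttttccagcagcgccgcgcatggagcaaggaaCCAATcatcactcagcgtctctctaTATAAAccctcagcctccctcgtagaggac
H2BC6, chr6:26183611-26183760, plus strand: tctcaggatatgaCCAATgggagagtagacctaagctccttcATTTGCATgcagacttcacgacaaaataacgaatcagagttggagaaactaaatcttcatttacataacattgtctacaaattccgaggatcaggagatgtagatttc
H4C12, chr6:27831561-27831710, minus strand: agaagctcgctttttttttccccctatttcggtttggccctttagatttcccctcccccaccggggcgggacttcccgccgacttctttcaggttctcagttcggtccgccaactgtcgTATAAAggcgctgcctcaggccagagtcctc
H2BC11, chr6:27132796-27132945, minus strand: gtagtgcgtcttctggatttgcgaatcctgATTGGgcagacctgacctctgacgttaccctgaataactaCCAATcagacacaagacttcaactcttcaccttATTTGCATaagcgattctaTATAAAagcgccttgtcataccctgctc
H2BC5, chr6:26157971-26158120, plus strand: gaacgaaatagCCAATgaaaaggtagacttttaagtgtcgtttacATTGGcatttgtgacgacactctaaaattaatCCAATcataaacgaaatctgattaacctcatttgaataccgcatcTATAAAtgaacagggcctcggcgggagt
H2BC12, chr6:27146856-27147005, minus strand: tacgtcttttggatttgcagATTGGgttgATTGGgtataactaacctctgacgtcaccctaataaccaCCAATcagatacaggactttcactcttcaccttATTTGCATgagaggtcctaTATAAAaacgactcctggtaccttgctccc
The H1 box began 119 bases before the start in both H1-2 and H1-3. In H2BC11 and H2BC12 the octamer began 47 and 49 bases before the start, and in H2BC6 it began 108 bases before it. H4C12 held TATAAA and none of the other motifs in this stretch.

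A promoter sequence was found for 62 of the 68 members, and the motifs were searched on both strands in the 250 bases before the start. CCAAT was present in 54 of the 62 (87.1%), against 32.0% of all 35116 promoters in the table. It stood in every one of the 14 H2A, 18 H2B, 9 H3 and 6 replication-dependent linker promoters searched, but in only 3 of the 10 H4 promoters. TATAAA was found in 42 of the 62 (67.7%), against 3763 of the 35116. The octamer was found in 11 of 14 H2A and 14 of 18 H2B promoters and in none of the H3, H4 or linker promoters, against 1.63% of all promoters. Among the 4 replacement variants, 1 held it. AAACACA was found in all 6 replication-dependent linker promoters and in no other member, against 4.82% of all promoters. Of the 7 members shown, 6 held CCAAT and 6 held TATAAA within the 250 bases. H2A and H2B genes of a divergent pair share the bases between them, so their promoters are not independent. Such a match describes letters in a window and is not evidence of binding.

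Values were log2 expression values as deposited, and array medians ran from 4.85 to 4.88. Each gene was represented by its brightest probe set over the 4 arrays, and a gene was tested if that probe set's mean reached 4.14, the 25th percentile over probe sets other than controls, called the dim value here. Over the 14965 genes tested, duplicates correlated at 0.992 (PC9) and 0.990 (MTAC-P), and arrays of different lines at 0.980 to 0.990 (Pearson's r across genes, which are not independent replicates). Of 10 lung epithelial markers, EPCAM, CDH1, KRT7, KRT8, KRT18 and KRT19 had values from 10.28 to 14.42 in both lines, while the alveolar genes NKX2-1, SFTPB, SFTPC and NAPSA stayed at 5.22 or below on every array. Fibroblast, blood and endothelial markers averaged between 4.11 and 4.96 on every array. The poly-A spike-in controls averaged 7.45 in PC9 and 8.16 in MTAC-P, a log2 difference of 0.71, and their part in the histone results was not tested. In bulk RNA, fewer cells of a type and less RNA per cell cannot be told apart. Nothing says that the arrays of a line came from separate cultures, so p-values measure only the spread between these samples, which may be technical.

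The comparison of MTAC-P with PC9 asks which histone genes separate the resistant line from PC9. Linker histone genes H1-2 and H1-3 had the largest differences, both higher in MTAC-P, by 0.98 and 0.88 on the log2 scale (SE 0.16 and 0.23). Several core histone genes, among them H2BC12, H2BC5, H2BC6, H2BC11 and H4C12, were higher in MTAC-P by 0.48 to 0.62. On their brightest probe sets, the replacement histones H2AX, H2AZ1, H3-3B and H1-10 differed by 0.16 or less in either direction, with overlapping arrays. No histone gene passed the limma threshold after Benjamini-Hochberg adjustment over all genes, 0 of 51 against 3 of the 14965 genes tested (0.0200%), of which 2 were higher in MTAC-P (0.0134%). The lowest limma adjusted p among the members was 0.0996, for H1-2.

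At a limma unadjusted p under 0.05, 7 of the 51 tested members (13.7%) were higher in MTAC-P and 0 were lower. Over all tested genes the shares were 7.76% higher and 11.1% lower, 18.9% together. Arrays of the lines did not overlap, with MTAC-P above PC9, for 15 of the 51 (29.4%), against 28.3% of all tested genes, so by this measure the members lay near the background. MTAC-P arrays lay wholly below PC9 arrays for H3C6, H4C13 and H4C16, 3 of the 51, against 24.9% of all tested genes. Of these 3, H4C13 and H4C16 reached the dim value only through PC9, with MTAC-P means of 4.11 and 4.07. Of the 15 with MTAC-P above, H1-3 and H3C1 reached it only through MTAC-P, with PC9 means of 3.87 and 4.13. In either direction 18 members did not overlap, against 53.2% of all tested genes. Means were higher in MTAC-P for 34 members (66.7%) and lower for 17, while 53.8% of all tested genes were higher. The members' median difference was 0.082 beside a median of 0.031 over all tested genes. Without PC9 replicate 1 the members' median was 0.14. In 36 of the 51 (70.6%) the larger gap between duplicates of a line exceeded the difference between the lines, as it did for 61.5% of all tested genes.

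**Figure D1:**
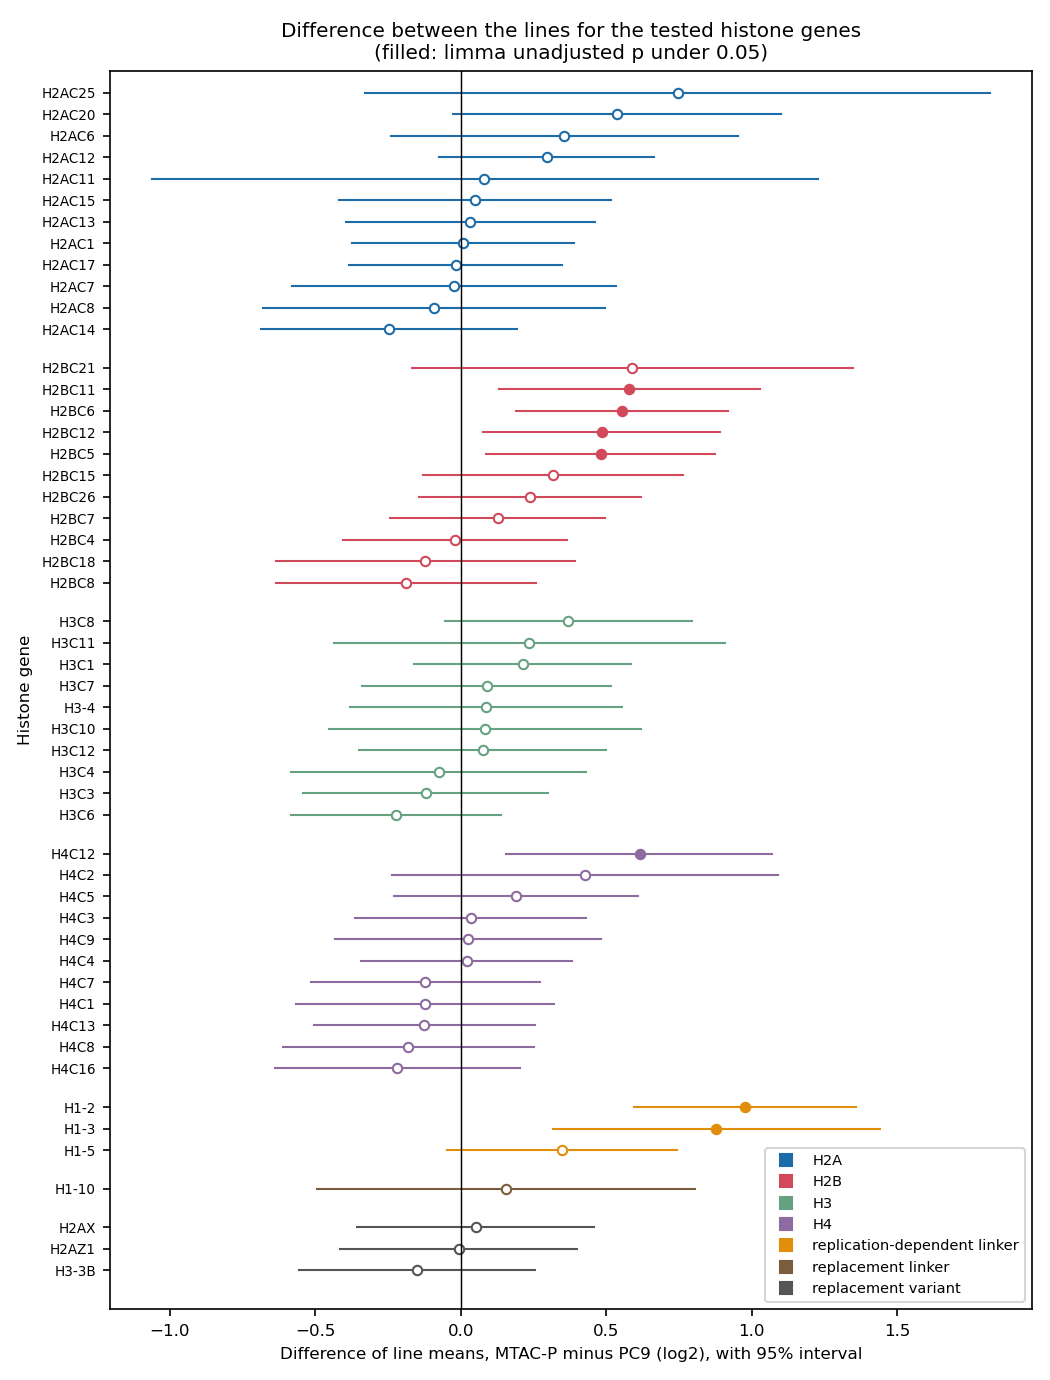
Difference between line means (MTAC-P minus PC9, log2, x axis) with limma's 95% interval for each of the 51 tested histone genes (y axis), coloured by class, with filled points at an unadjusted p under 0.05. H1-2 at 0.98 lies farthest to the right, and all 7 filled points lie above 0.

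Linker histones compact chromatin by binding where DNA enters and leaves the nucleosome. H1-2 (formerly HIST1H1C), a major somatic linker histone, had values of 7.65 and 7.70 on the PC9 arrays and of 8.74 and 8.57 on the MTAC-P arrays. Both MTAC-P arrays lay above both PC9 arrays, and the gap between the lines was larger than the gap between duplicates. The line means were 7.68 ± 0.031 and 8.65 ± 0.12 (SD, n = 2 per line), a 1.97-fold difference with a 95% interval of 0.60 to 1.36 on the log2 scale. Leaving out any single array kept the difference of H1-2 between 0.89 and 1.06. H1-2 is read by a single probe set with the suffix _x_at, so binding of other histone messages to it was not tested.

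H1-3, another somatic linker histone, had values of 3.67 and 4.06 on the PC9 arrays and of 4.49 and 4.996 on the MTAC-P arrays. MTAC-P lay above PC9 on every array, but both PC9 arrays lay below the dim value of 4.14, and the fold difference was 1.84. Its difference was 0.88 (SE 0.23, limma adjusted p = 0.142), and it was 0.63 without MTAC-P replicate 2 and 0.49 with a pseudocount of 16 on the linear scale. H1-5 had values of 4.27 and 4.41 in PC9 and of 4.79 and 4.595 in MTAC-P, a difference of 0.35 (SE 0.16, limma adjusted p = 0.312) at a level near the dim value. All 3 tested replication-dependent linker genes had MTAC-P arrays above PC9 arrays, against 28.3% of all tested genes. Of these, H1-3 reached the dim value only through its MTAC-P arrays. The other 3 linker genes, H1-1, H1-4 and the testis-specific H1-6, had means below the dim value and were not tested. They differed by 0.39, 0.16 and 0.12, and the arrays of H1-1 and H1-6 overlapped between the lines.

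**Figure D2:**
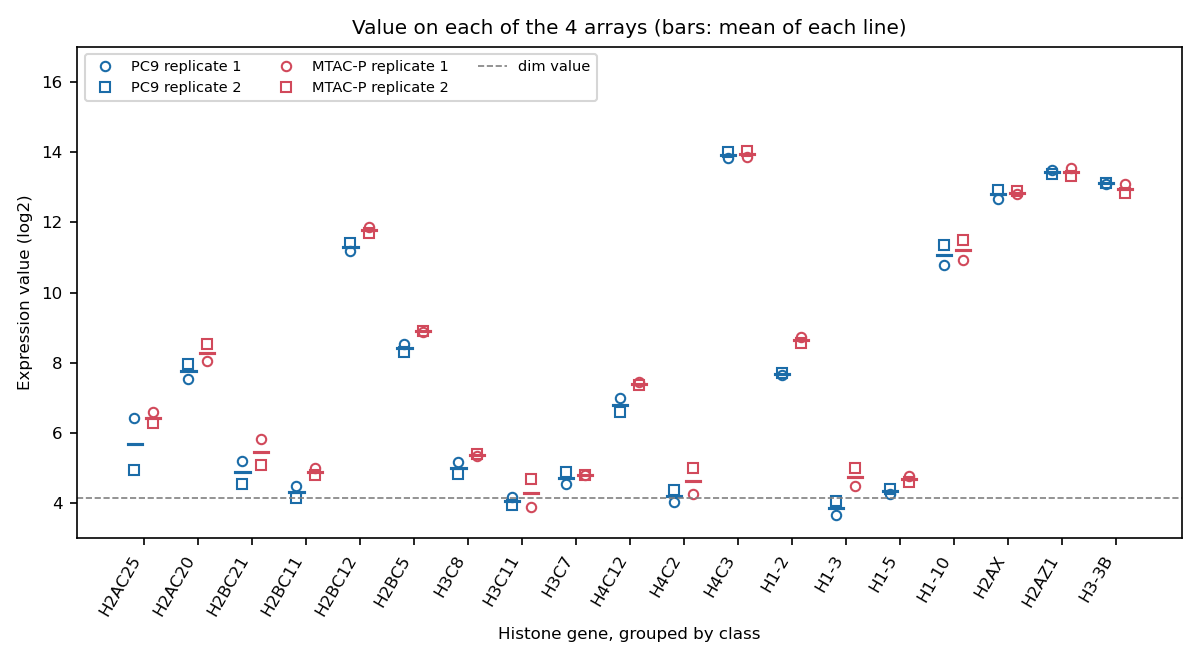
Expression value (log2, y axis) on each of the 4 arrays for the 19 histone genes described in full (x axis, grouped by class), with circles for replicate 1, squares for replicate 2, bars for line means and a dashed line at the dim value of 4.14. The MTAC-P points of H1-2, H2BC12, H2BC5 and H4C12 sit above the PC9 points, while those of H4C3, H2AX and H2AZ1 overlap them.

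Among the core histones, H2B genes had the highest class median, 0.32 over 11 tested genes, of which 8 were higher and 3 lower in MTAC-P. The median was 0.21 without PC9 replicate 1 and also without MTAC-P replicate 1. H2B pairs with H2A in the dimers that flank the H3-H4 tetramer. H2BC12 had values of 11.18 and 11.42 on the PC9 arrays and of 11.86 and 11.71 on the MTAC-P arrays. Its lines did not overlap, and it differed by 0.48 (SE 0.17, limma adjusted p = 0.212), a 1.40-fold difference. Its dimmer second probe set overlapped between the lines at a difference of 0.11, and with the mean of both probe sets H2BC12 differed by 0.30. H2BC5 had values of 8.53 and 8.30 in PC9 and of 8.88 and 8.92 in MTAC-P. Again the lines did not overlap, with a difference of 0.48 (SE 0.16, limma adjusted p = 0.202), and its 3 probe sets differed by 0.48, 0.48 and 0.39.

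H2BC11 was at 4.49 and 4.16 in PC9 and at 5.01 and 4.80 in MTAC-P, with a difference of 0.58 (SE 0.19, limma adjusted p = 0.187) that was 0.35 with the pseudocount. H2BC6 was at 4.14 and 4.15 in PC9 and at 4.67 and 4.73 in MTAC-P, a difference of 0.56 (SE 0.15, limma adjusted p = 0.144). Its other probe sets differed by 0.33 and 0.0090, with overlapping arrays. H2BC11 and H2BC6 had PC9 values close to the dim value, and both were read by _s_at probe sets. Without _x_at and _s_at probe sets, H2BC6 was not among the members at a limma unadjusted p under 0.05. H2BC21 had the largest H2B difference, 0.59 (SE 0.31, limma adjusted p = 0.355), but its values of 5.20 and 4.55 in PC9 and of 5.84 and 5.09 in MTAC-P overlapped. The difference of H2BC21 was 0.21 without MTAC-P replicate 1 and 0.36 with the mean of its probe sets. The remaining 6 tested H2B genes ranged from -0.19 for H2BC8 to 0.32 for H2BC15.

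The 12 tested H2A genes had a median difference of 0.041, with 8 higher and 4 lower in MTAC-P, and none had a limma unadjusted p under 0.05. H2AC20 had values of 7.53 and 7.98 on the PC9 arrays and of 8.06 and 8.53 on the MTAC-P arrays. The lines did not overlap, although in each line replicate 2 lay above replicate 1 by nearly the size of the difference of 0.54 (SE 0.23, limma adjusted p = 0.282), which was 0.30 without MTAC-P replicate 2. The second probe set of H2AC20, near the dim value, overlapped between the lines at a difference of 0.26. With the mean of both probe sets H2AC20 differed by 0.40. H2AC25 had values of 6.42 and 4.96 in PC9 and of 6.60 and 6.28 in MTAC-P. Its lines overlapped, since PC9 replicate 1 lay above MTAC-P replicate 2, and the difference of 0.75 (SE 0.45) was 0.015 without PC9 replicate 2. H2AC11 had wide gaps between duplicates in both lines, with 6.03 and 4.86 in PC9 and 6.08 and 4.97 in MTAC-P, and the lines differed by 0.082. The lowest H2A difference was -0.25, for H2AC14.

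Many H2A and H2B genes lie head to head and share the sequence between their starts. In the RefSeq promoter table, 11 such pairs among the members had starts 194 to 248 bases apart, and both genes were tested in 7. Of these 7 pairs, 5 had differences of the same sign. Since 8 of the 12 tested H2A and 8 of the 11 tested H2B genes were higher in MTAC-P, unpaired genes would also often share a sign. Whether paired genes do so more often was not tested. The pair H2AC20 and H2BC21 on chromosome 1 had differences of 0.54 and 0.59, and H2AC25 and H2BC26, also on chromosome 1, had 0.75 and 0.24. The pair H2AC11 and H2BC11 had 0.082 and 0.58, and H2AC6 and H2BC4 had opposite signs at 0.36 and -0.020.

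H3 and H4 form the central tetramer of the nucleosome. The 10 tested H3 genes ranged from -0.22 to 0.37 with a median of 0.086, and 7 were higher in MTAC-P. H3C8 had values of 5.17 and 4.84 in PC9 and of 5.34 and 5.41 in MTAC-P, a difference of 0.37 (SE 0.18, limma adjusted p = 0.314) that was 0.21 without PC9 replicate 2. Its 4 probe sets were all higher in MTAC-P, by 0.12 to 0.37, and without _x_at and _s_at probe sets the difference was 0.24. H3C7 had 4.55 and 4.89 in PC9 and 4.81 and 4.81 in MTAC-P, and H3C11 had 4.17 and 3.94 in PC9 and 3.89 and 4.70 in MTAC-P. For H3C7 and H3C11 the MTAC-P arrays overlapped the PC9 arrays.

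The 11 tested H4 genes had a median difference of 0.021, and 6 of them were higher in MTAC-P. H4C12 had values of 6.997 and 6.59 on the PC9 arrays and of 7.46 and 7.36 on the MTAC-P arrays. The lines did not overlap, the difference was 0.62 (SE 0.19, limma adjusted p = 0.175), a 1.53-fold difference, and its second probe set differed by 0.47. H4C3 had values of 13.83 and 14.01 in PC9 and of 13.88 and 14.03 in MTAC-P. Its arrays overlapped, with a difference of 0.035 and a 95% interval of -0.36 to 0.43. H4C2 had values of 4.05 and 4.38 in PC9 and of 4.26 and 5.01 in MTAC-P, and its difference of 0.43 (SE 0.27) was 0.050 without MTAC-P replicate 2. The lowest H4 difference was -0.22, for H4C16 on chromosome 12.

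The replacement histones had values far above the dim value, and none of the 4 tested genes separated the lines on its brightest probe set. H2AX, which is phosphorylated at DNA breaks, was at 12.67 and 12.93 in PC9 and at 12.81 and 12.89 in MTAC-P, a difference of 0.051 with a 95% interval of -0.36 to 0.46. H2AZ1, which encodes the H2A.Z variant found at promoters, was at 13.51 and 13.38 in PC9 and at 13.56 and 13.31 in MTAC-P. Its difference was -0.0074 (95% interval -0.41 to 0.40), and its 4 probe sets ranged from -0.034 to 0.0046. H3-3B, a source of the replacement histone H3.3, was at 13.09 and 13.14 in PC9 and at 13.10 and 12.83 in MTAC-P. On its brightest probe set the arrays of H3-3B overlapped at a difference of -0.15 (95% interval -0.56 to 0.26). All 4 of its probe sets were lower in MTAC-P, with differences from -0.24 to -0.15. On those at -0.24 and -0.18, both MTAC-P arrays lay below both PC9 arrays. The same held for a probe set shared with H3-5, at -0.25. These further probe sets were not tested. The 3 intervals of H2AX, H2AZ1 and H3-3B include differences of 0.26 in either direction, so the levels are not shown to be equal.

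H1-10, a replacement linker histone, was at 10.78 and 11.35 in PC9 and at 10.94 and 11.50 in MTAC-P. Its duplicates differed by 0.56 in each line, more than the 0.16 between the lines (95% interval -0.49 to 0.80). Its dimmer second probe set differed by 0.43, with both MTAC-P arrays above both PC9 arrays. H3-3A, the other source of H3.3, was represented by a probe set with values of 3.80 and 3.77 in PC9 and of 3.89 and 4.19 in MTAC-P, mostly below the dim value, and was not tested. The 3 probe sets that the annotation assigns to H3-3A together with the pseudogene H3P6 had values from 12.94 to 13.32 and differed by -0.25, -0.22 and -0.15. On each of these 3 probe sets, which were not tested, both MTAC-P arrays lay below both PC9 arrays.

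**Figure D3:**
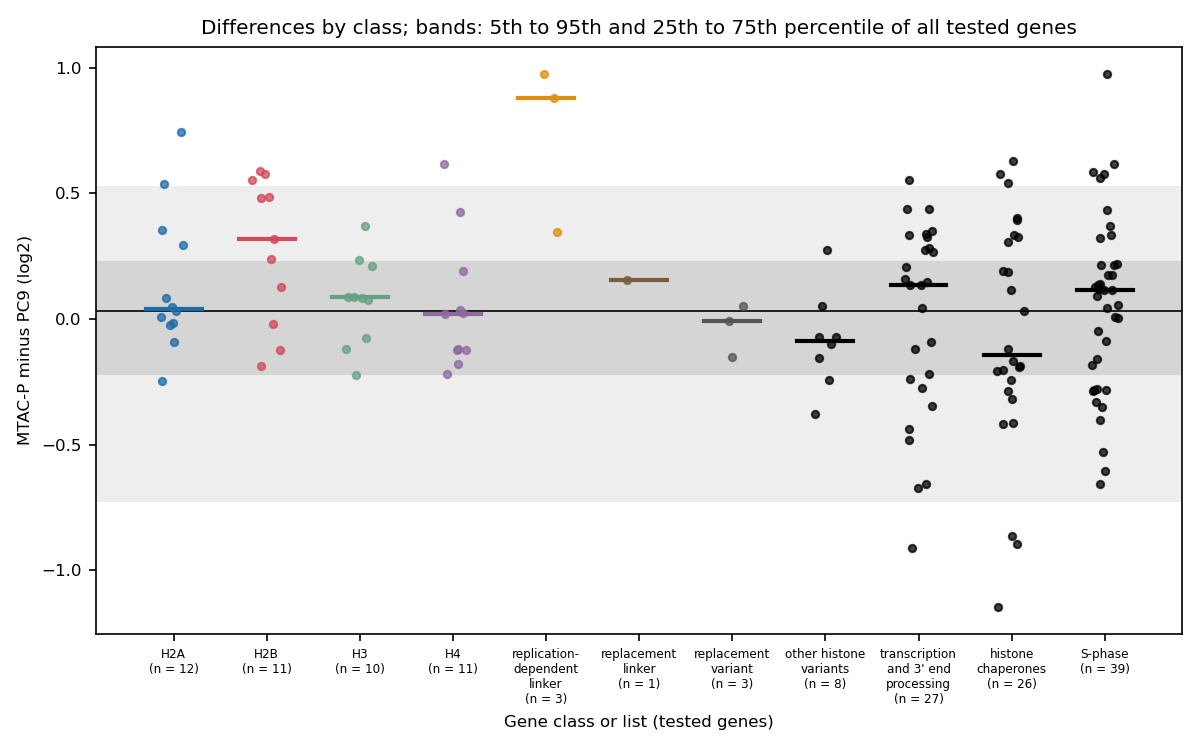
Difference between the lines (log2, y axis) for each tested gene of 7 histone classes and of 4 further lists (x axis), with bars at medians and bands at the 5th to 95th and the 25th to 75th percentile of all tested genes. The medians of H2B, 0.32, and of the replication-dependent linker genes, 0.88, lie above the 75th percentile of all tested genes, 0.23. The other class medians lie inside the middle band. The linker median is the value of H1-3 among 3 tested genes, and it was 0.37 over 6 genes without the dim filter.

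Brighter and dimmer replication-dependent genes were also counted apart. Of the 47 tested, 36 had a mean less than 1 log2 unit above the dim value, with 21 higher, 15 lower and a median difference of 0.029. The other 11, with means of 5.14 or more, all had higher means in MTAC-P, and their median was 0.48. Among them, H2BC21 and H3C8 had PC9 means of 4.88 and 5.01, so their overall means reached 5.14 only through MTAC-P. For these genes the cut itself favoured a higher mean in MTAC-P, and H3C8 is also among the non-overlapping genes counted next. These 11 include H4C3 at 0.035 and H2AC11 at 0.082, and 6 of them (54.5%) had MTAC-P arrays wholly above PC9 arrays, against 30.8% of all tested genes at such levels. Of all tested genes at such levels, 52.7% were higher in MTAC-P and the median was 0.030. The split was chosen after the values were seen and carries no test. On chromosome 6, 27 of the 40 tested replication-dependent genes were higher, with a median of 0.079, and on chromosome 1 it was 5 of 6, with a median of 0.39. The 17 members under the dim value, whose means ran from 3.75 to 4.13, were higher in MTAC-P in 11 cases and differed by -0.17 to 0.47.

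Probe sets of a gene did not always share a direction. Of 19 members with at least 2 probe sets at or above the dim value, 12 had probe sets of 1 sign and 7 had both signs. All probe sets of H2BC5, H2BC6, H2BC11, H2BC12, H2AC20, H3C8 and H4C12 at or above the dim value were higher in MTAC-P. Signs were mixed for H2AC7, H2AC8, H2AZ1, H2BC4, H2BC8, H2BC18 and H3C7, whose brightest probe sets differed by -0.19 to 0.089.

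Probe sets that carry several histone symbols are not members, but they read genes of the same clusters. The 2 probe sets shared by H2AC18 and H2AC19, identical H2A copies on chromosome 1, had values of 8.93 and 9.18 in PC9 against 9.70 and 9.92 in MTAC-P for the first, and of 8.52 and 8.77 against 9.24 and 9.48 for the second. On both, the MTAC-P arrays lay above the PC9 arrays, by 0.75 and 0.72. A probe set of H4C14 and H4C15 had values of 6.05 and 5.31 in PC9 and of 6.84 and 6.505 in MTAC-P, a difference of 0.99, while a dimmer one of the same pair differed by -0.28. The probe set shared by H4C11 and H4C12 differed by 0.46. Probe sets of H3C13, H3C14 and H3C15 lay near the dim value and differed by -0.24 to 0.048. These values were not tested.

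**Figure D4:**
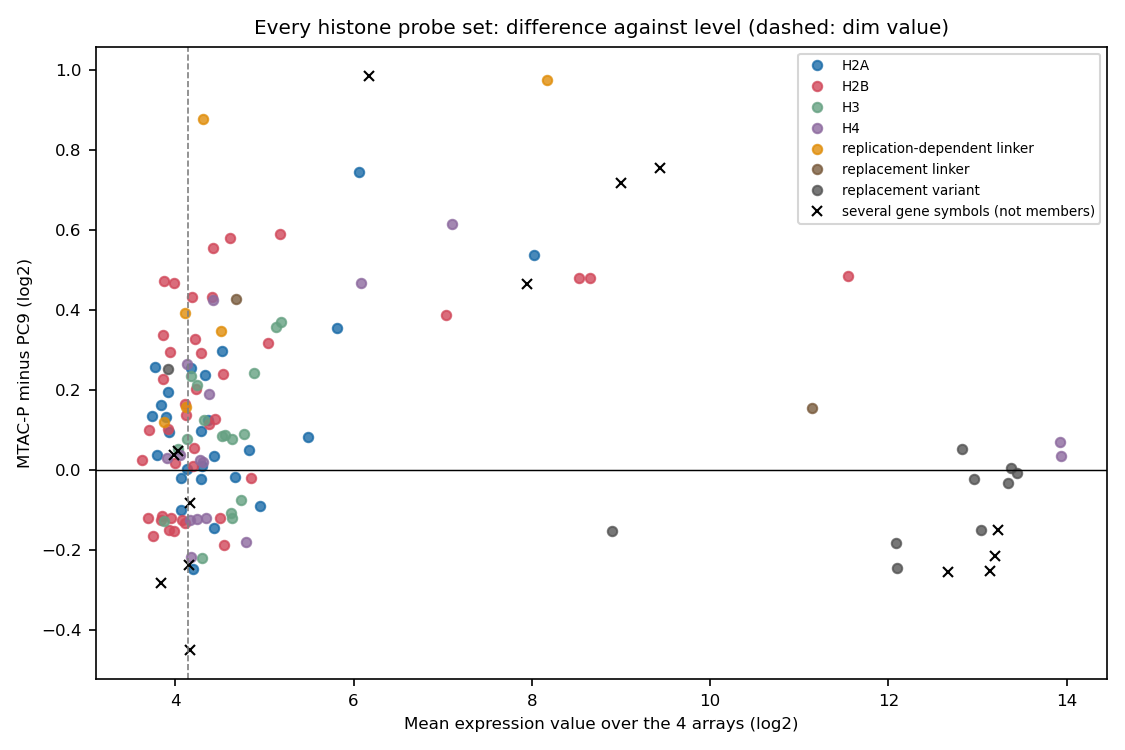
Difference between the lines (log2, y axis) against the mean value over the 4 arrays (log2, x axis) for the 119 probe sets of the members, coloured by class, with crosses for 14 probe sets of several genes and a dashed line at the dim value. Most probe sets crowd near the dim value with both signs, those of replication-dependent genes at 5.14 or more lie above 0, and those of H2AZ1 and H4C3 at the far right lie close to 0.

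The machinery that makes and stores histones was examined in lists of genes chosen by function. Of 27 tested genes for histone gene transcription and 3' end processing, the mean was higher in MTAC-P for 16 and lower for 11, with a median of 0.14, and 0 passed the limma threshold (lowest adjusted p 0.111). The share with higher means was 59.3%, against 53.8% of all tested genes. At a limma unadjusted p under 0.05, 2 (7.41%) were higher and 3 lower, against 7.76% and 11.1% of all tested genes. SLBP, the stem-loop binding protein, was at 10.71 and 10.26 in PC9 and at 10.68 and 10.56 in MTAC-P, and the arrays overlapped at a difference of 0.14. NPAT, the coactivator of histone transcription, was at 5.18 and 5.15 in PC9 and at 5.92 and 5.08 in MTAC-P, with overlapping arrays. The largest differences were -0.91 (SE 0.17) for TENT4B, a non-canonical poly(A) polymerase, -0.68 (SE 0.19) for the uridylyltransferase TUT7, 0.55 (SE 0.24) for the cleavage factor CSTF2 and 0.44 (SE 0.18) for SRRT.

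Histone chaperones carry histones from synthesis to DNA. Their median difference was -0.14 over 26 tested genes, and 0 passed the limma threshold (lowest adjusted p 0.101). Means were higher in MTAC-P for 12 (46.2%, against 53.8% of all tested genes) and lower for 14. By limma's unadjusted p under 0.05, 3 (11.5%) were higher and 3 lower, against 7.76% and 11.1% of all tested genes. ATRX, which deposits H3.3 together with DAXX, was at 7.40 and 7.19 in PC9 and at 6.35 and 5.95 in MTAC-P, a difference of -1.15 (SE 0.20). DEK differed by -0.90 (SE 0.21). In the other direction HIRA, the chaperone of H3.3 in active genes, differed by 0.63 (SE 0.23) and MCM2, which handles parental histones at the fork, by 0.58 (SE 0.23).

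Among 39 tested S-phase genes, the median difference was 0.11, and 0 passed the limma threshold (lowest adjusted p 0.112). Means were higher in MTAC-P for 25 (64.1%, against 53.8% of all tested genes) and lower for 14. By limma's unadjusted p under 0.05, 5 (12.8%) were higher and 2 lower, against 7.76% and 11.1% of all tested genes. ORC1, a subunit of the origin recognition complex, was at 8.38 and 8.02 in PC9 and at 9.31 and 9.05 in MTAC-P, a difference of 0.98 (SE 0.20). GINS4 differed by 0.62 (SE 0.19), whereas CCNE2 differed by -0.66 (SE 0.29) and POLE2 by -0.60 (SE 0.23). SLBP, E2F1, CCNE2 and MCM2 stand in 2 of these lists. The part of S-phase activity in the histone differences was not tested. Other histone variants outside the membership, 8 tested, had a median of -0.087, with the centromeric CENPA at -0.38 (SE 0.24), MACROH2A2 at -0.24, H2AZ2 at 0.27 (SE 0.19) and MACROH2A1 at 0.053.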

How the data were processed

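The authors deposited log2 expression values, 1 per probe set and array, in a table of 49386 probe sets. The log2 scale was inferred from their range of 3.32 to 14.6, and the normalization is not given in the sources used here. Agilent Feature Extraction 10.7 is named per the submitters' processing notes, but probe-set names follow Affymetrix conventions. Symbols came from GEO's platform annotation, updated by gene identifier to the RefSeq table of GRCh38.p14: 45253 probe sets had 1 symbol, 1327 several and 2713 none. Each gene was its brightest probe set, and 3274 of 18239 genes under the 25th percentile of non-control probe sets were left out. Differences were fitted in limma 3.58.1 under R 4.3.3 with moderated variances, 2-sided, with Benjamini-Hochberg adjustment at 0.05, after the code was tested on simulated data, and intervals are 95% intervals. With 2 arrays per line, their number limits the precision, and an exact 2-sided permutation p cannot go below 0.333. Members and lists were chosen with earlier results of these data known. Described in full were the tested linker and replacement genes and, per core class, the 2 brightest and the 2 with the largest difference. From each list the 2 largest differences per direction were named, and SLBP, NPAT, H2BC6 and H2AC11 were chosen after their values were seen. Promoters were RefSeq's, with the first start by position where several were listed. Plots used matplotlib 3.10.9 under Python 3.11.15. A further gene named by the membership rule is not reported here.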

Additional observations from a re-analysis of the deposited data

How the results depend on the processing

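Of 256 differences of the 19 genes described in full under the alternatives, 238 kept their sign and their side of the adjusted threshold, and 11 turned sign, all of genes with overlapping arrays. H3C7 differed by -0.0095 with the mean of all probe sets, and H2AZ1 by 0.0046 without _x_at and _s_at probe sets. When each array was left out in turn, H1-10 ran from -0.13 to 0.44, H2AX from -0.081 to 0.18, H2AZ1 from -0.13 to 0.12, H3C7 from -0.082 to 0.26, H3C11 from -0.17 to 0.64 and H4C3 from -0.058 to 0.13.

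Genes past the adjusted threshold, 3 in all, numbered 1 with the 50th percentile filter, 1 without _x_at and _s_at probe sets, 1 with the pseudocount of 16, 0 with the mean of all probe sets and 77 with a variance trend. When each array was left out they ran from 0 (without MTAC-P replicate 1 or 2) to 68 (without PC9 replicate 1). Under these settings 0 histone genes passed. The replicate numbers of the titles say nothing of a shared culture or day, so whether arrays of the same number share more than it is not known. Over genes, the gap between replicates 1 and 2 correlated at 0.28 between the lines. With the replicate number as a block, 2075 of the 14965 tested genes passed. Among the 51 tested histone genes 8 passed (H1-2, H1-3, H2AC20, H2AC25, H2BC11, H2BC21, H2BC6 and H4C12), a share near that of all tested genes. The 7 higher members at a limma unadjusted p under 0.05 became 11 with the block and 4 with the 50th percentile filter, where 17 members were tested. The share of all tested genes at that p was not counted under these settings. The change in number is therefore not a result about the histone genes. When each array was left out, the difference ran from 0.89 to 1.06 for H1-2 and from 0.63 to 1.13 for H1-3.

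Class medians moved with several settings. Without the dim filter the H2B median was 0.24 and the replication-dependent linker median 0.37. With the 50th percentile filter, which leaves the brighter genes, the medians were 0.36 for 17 members, 0.36 for 5 H2A genes and 0.48 for 4 H2B genes, while H3 was left with 1 gene at 0.37 and H4 with 2 at a median of 0.33. The H2A median was 0.098 when a gene was the mean of its probe sets. Without _x_at and _s_at probe sets, which drops H1-2, the H2B median was 0.38 and the linker median 0.61, and with the pseudocount they were 0.21 and 0.49. When each array was left out, the median ran from 0.057 to 0.14 for all members, from 0.019 to 0.22 for H2A, from 0.21 to 0.32 for H2B, from -0.0069 to 0.15 for H3, from -0.16 to 0.062 for H4, from 0.63 to 1.00 for linker genes and from -0.13 to 0.0083 for replacement variants. The cause of the other changes was not tested. The number of arrays and values near the dim value limit what could be seen.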

Other observations

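Some histone genes differed more between the replicate numbers than between the lines. Replicate 1 lay above replicate 2 for H2AC11 by 1.17 in PC9 and by 1.11 in MTAC-P, and for H2BC21 by 0.64 and 0.75. It lay below replicate 2 for H1-10 by 0.56 in both lines. For 27 of the 51 tested members (52.9%) the gap had the same sign in both lines, as it had for 55.9% of all tested genes. These genes were chosen after their values were seen.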
